A study of Vitis vinifera with 66 samples.

Results

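The comparison described here sets berries of Sauvignon Blanc grapevines that met flooding in spring and a heatwave in summer (FH) against berries that met the heatwave alone (H), both sampled at the end of the heatwave (T3). Its members are the 3 FH and 3 H libraries of T3, chosen by their labels, which make 6 of the 66 RNA libraries of the series. FH vines had been waterlogged around bud break in spring and were brought down to 30% of field capacity before veraison. The thermostat of their tunnel was then set 5 °C higher than that of the other tunnel. H vines received the same drought and heat setting with no flooding, and stood in the same tunnel as FH vines. Thermocouples in the fruit nevertheless showed, as the paper reports, that FH berries were warmer than H berries by day. A difference between FH and H thus cannot be told apart from one in berry temperature. F vines were flooded in spring alone and C vines were never stressed, and both stood in the other tunnel, so that a difference between FH or H and F or C cannot be told apart from one between tunnels. All vines were of one clone, grafted and grown in pots, and each library is from berries of a separate vine. Which of the study's seasons the libraries come from is not stated.

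Waterlogging deprives roots of oxygen, and in woody plants its consequences can outlast the flood through changes in root growth, reserves and hormone supply. In the grape berry, veraison opens a ripening program in which sugars accumulate, acidity falls and cell walls soften, and abscisic acid (ABA) is its best known hormonal promoter. Heat induces chaperones such as HSP101, which dissolves protein aggregates, and heat and drought induce the synthesis of osmoprotectants such as galactinol, raffinose, trehalose and proline.

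Total counts were 19523350 to 21056849 in the FH libraries and 17074730 to 18746411 in the H libraries. Levels are given below in CPM, a gene's count relative to the library total after TMM scaling. A chi-square of the raw counts per degree of freedom was 94.1 to 128.9 between FH replicates and 21.8 to 24.8 between H replicates, far above the value near 1 of a library counted again, so that each was kept as a separate sample. The H libraries were the closest to each other of the 4 groups at T3. The median SD over genes, on the log2(CPM + 4) scale, was 0.18 in FH and 0.096 in H, with 0.15 in F and 0.13 in C. It was higher than in H for 74.0% of the genes in FH, 68.5% in F and 64.6% in C. On the first 2 principal components of the 12 T3 libraries, which carried 32.8 and 25.7% of the variance, the FH libraries lay at a mean distance of 30.3 from each other and the H libraries at 12.8, with 27.2 in F and 24.6 in C. FH replicate 3 stood apart, at -9.5 on the first component, where FH replicates 1 and 2 were at 18.2 and 26.9 and the H libraries at 13.5 to 29.5. HSP101 (VIT_17s0000g07190), the check of the heat label, had 1817, 418 and 405 CPM in FH libraries and 420, 614 and 1152 CPM in H libraries, against 997, 464 and 19.3 CPM in F libraries and 527, 58.6 and 157 CPM in C libraries. All 4 groups overlap, so that this chaperone did not separate the heated berries from the others at T3.

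Between FH and H berries at T3, 130 genes were higher and 126 were lower in FH, of the 19625 genes that entered an edgeR quasi-likelihood fit of the 66 libraries together. Genes were taken as differentially expressed (DEGs) where the p adjusted after Benjamini and Hochberg was under 0.05 and the fold change reached 1.5. The DEGs are 0.662% of all genes in the higher and 0.642% in the lower direction, and 3892 genes had an unadjusted p under 0.05. With no difference between the groups, a share of about 0.05 of the genes tested would have such a p. The median size of the change was 0.99 on the log2 scale among the higher and 1.16 among the lower DEGs, and 65 of the 256 DEGs changed by a fold of 4 or more. The lowest adjusted p was 0.00439. The FH and H libraries did not overlap in 119 of the higher and 123 of the lower DEGs. Over all genes, 12.2% had all FH libraries above and 11.7% all FH libraries below the H libraries.

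The number of DEGs rested on single vines. Without FH replicate 3, without H replicate 1 or without H replicate 3 it was 0 in both directions (edgeR), although 1893, 2774 and 2654 genes then had an unadjusted p under 0.05. Without FH replicate 1, it was 439 higher and 503 lower, and 127 and 118 of the DEGs were among these. It was 305 higher and 170 lower without FH replicate 2, and 93 and 97 without H replicate 2. DESeq2 called 300 genes higher and 331 lower (1.69 and 1.87% of those it tested), with 125 and 123 of the edgeR DEGs among them, whereas edgeR on the 12 T3 libraries alone called 0 (3245 at an unadjusted p under 0.05). All 256 DEGs kept their sign in each of these fits. The fits reuse the libraries that chose the genes, and 242 of the DEGs do not overlap between FH and H. A kept sign was thus largely built in and is no support. Relative to the mean of H, the median deviation of the higher DEGs was 0.53, 0.50 and 0.94 in FH replicates 1, 2 and 3 on the log2(CPM + 4) scale, and that of the lower DEGs was -0.59, -0.86 and -1.12. FH replicate 3 was thus farthest from H in both sets, and these deviations come from the contrast that chose the genes.

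**Figure D1:**
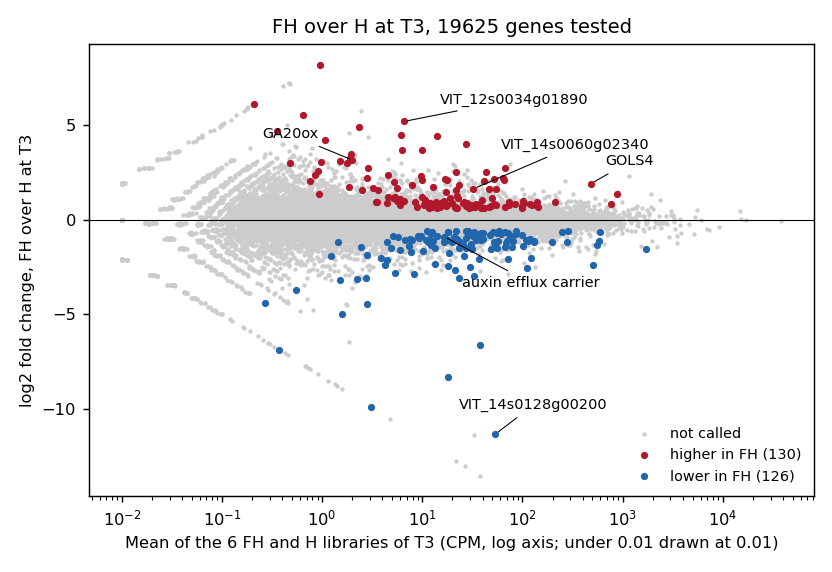
Log2 fold change of FH over H at T3 against the mean level of the 6 libraries in CPM (log axis), one point per gene tested. Red points are the 130 genes higher and blue points the 126 genes lower in FH, and grey points passed no threshold. GOLS4 is the most abundant of the labelled genes.

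The genes that the study names by ID were followed in groups. They number 122, of which 115 were tested and 4 were DEGs between FH and H, 3 higher and 1 lower. The study drew these lists from the same libraries, so that a direction they show is not independent evidence. The median log2 fold change of the 115 genes was -0.32, against 0.02 for all genes. Of the 115 genes 27 had an unadjusted p under 0.05 (edgeR), and DESeq2 called 5 higher and 1 lower. The 3 higher ones were all among the 13 qPCR target genes, which the study chose among its own DEGs with T3 in view. Their primers, taken from the supplement of the study, are shown because they mark the stretches by which these transcripts were assayed, all in lower case and 5′ to 3′.
GOLS4 forward, chromosome 1: aacgctgggatgttcgtctt
GOLS4 reverse: acgagagggatgggcttgta
GA20ox forward, chromosome 15: tggcttcttccttgttgtgaatcat
GA20ox reverse: ttgcttctcagagagtgacatgttg
VIT_14s0060g02340 forward, chromosome 14: aatcaaagatgctgtcgtcactgtt
VIT_14s0060g02340 reverse: tttattatccgagccacattgagcc

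GOLS4 (VIT_01s0127g00470) encodes a galactinol synthase, the enzyme that opens the synthesis of raffinose family sugars. It had 403, 1577 and 320 CPM in FH libraries, against 215, 187 and 207 CPM in H libraries. All FH values were above all H values, and FH replicate 2 was far above the other FH vines. The log2 fold change was 1.92 (SE 0.46, edgeR adjusted p = 0.0255), a 3.77-fold higher level. Without FH replicate 2 it was 0.85 and the adjusted p was 0.242, and without each of the others except FH replicate 1 the adjusted p was 0.0614 to 0.125. Levels were 205, 139 and 240 CPM in F and 79.3, 197 and 106 CPM in C, so that the H values lay within the range of F. At the other time points GOLS4 was also a DEG at T1 (log2 fold change 1.8, SE 0.46, adjusted p = 0.0426), when only the drought had been imposed. It was -0.66 at T2 (adjusted p = 1), 1.09 at T4 (adjusted p = 0.314) and 0.66 at T5 (adjusted p = 0.586). At T4 the FH libraries had 551, 728 and 481 CPM and the H libraries 337, 204 and 285 CPM, which do not overlap. A gap at T1 was also seen without drought, at 103, 81.1 and 67.0 CPM in F and 24.7, 20.5 and 20.8 CPM in C libraries. GOLS4 rose in C berries between T0 and T5 (log2 change 1.96, edgeR adjusted p = 0.000291). It was also higher in H than in C at T2 (log2 fold change 1.29, edgeR adjusted p = 0.0407).

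The other osmoprotectant genes were not DEGs. Of the 9 genes of this list, 1 was higher, 0 were lower and 8 did not pass, and the median log2 fold change was -0.15. P5CS (VIT_13s0019g02360), which commits glutamate to proline, had 465, 610 and 298 CPM in FH and 754, 550 and 821 CPM in H libraries, a log2 fold change of -0.63 with an adjusted p of 0.221. The trehalose-phosphatase/synthase gene VIT_17s0000g08010 had 23.4, 22.6 and 23.8 CPM in FH and 15.5, 15 and 12.2 CPM in H libraries, with an adjusted p of 0.439. These were named after their values had been seen.

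Gibberellin metabolism held the largest change among the listed DEGs. GA20ox (VIT_15s0048g01320) encodes a gibberellin 20-oxidase, which makes the precursors of active gibberellins. It had 3.34, 1.63 and 5.87 CPM in FH libraries, against 0.20, 0.40 and 0.60 CPM in H libraries. FH and H do not overlap, and the gene was near the floor in H, with raw counts of 3, 7 and 9 where FH had 60, 25 and 132. F libraries had 2.69, 1.03 and 0.146 CPM, which overlap with FH, and FH over F did not pass (edgeR adjusted p = 0.28). C libraries had 0.62 to 1.20 CPM, each above each H value. The log2 fold change was 3.16 (SE 0.86, edgeR adjusted p = 0.0447), and the adjusted p was 0.348 without FH replicate 3 and 0.0992 to 0.19 without any one H library. At T2 both groups had carried this transcript, at 3.26, 6.19 and 1.32 CPM in FH and 5.45, 0.999 and 1.79 CPM in H libraries. It was not a DEG at T1, T2, T4 or T5, with log2 fold changes of -0.72 to 0.40.

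GA2ox (VIT_10s0003g03490), a gibberellin 2-oxidase of the kind that inactivates gibberellins, had 36.9, 50.7 and 47.3 CPM in FH libraries, against 10.3, 15.1 and 10.9 CPM in H libraries. F libraries had 2.48 to 6.72 CPM and C libraries 2.46 to 4.76 CPM, so that each FH value was above each H value and each H value above each F and C value. The log2 fold change of FH over H was 1.89 (SE 0.86) and did not pass (adjusted p = 0.21). At T4 the FH libraries were back to 0.246 to 2.19 CPM and the H libraries to 0.688 to 1.34 CPM. The other GA2ox (VIT_10s0116g00410) had 1.11 to 9.47 CPM in FH and 1.36 to 3.64 CPM in H libraries, and GA3ox was too low to be tested. Both GA2ox genes were named after their values had been seen.

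**Figure D2:**
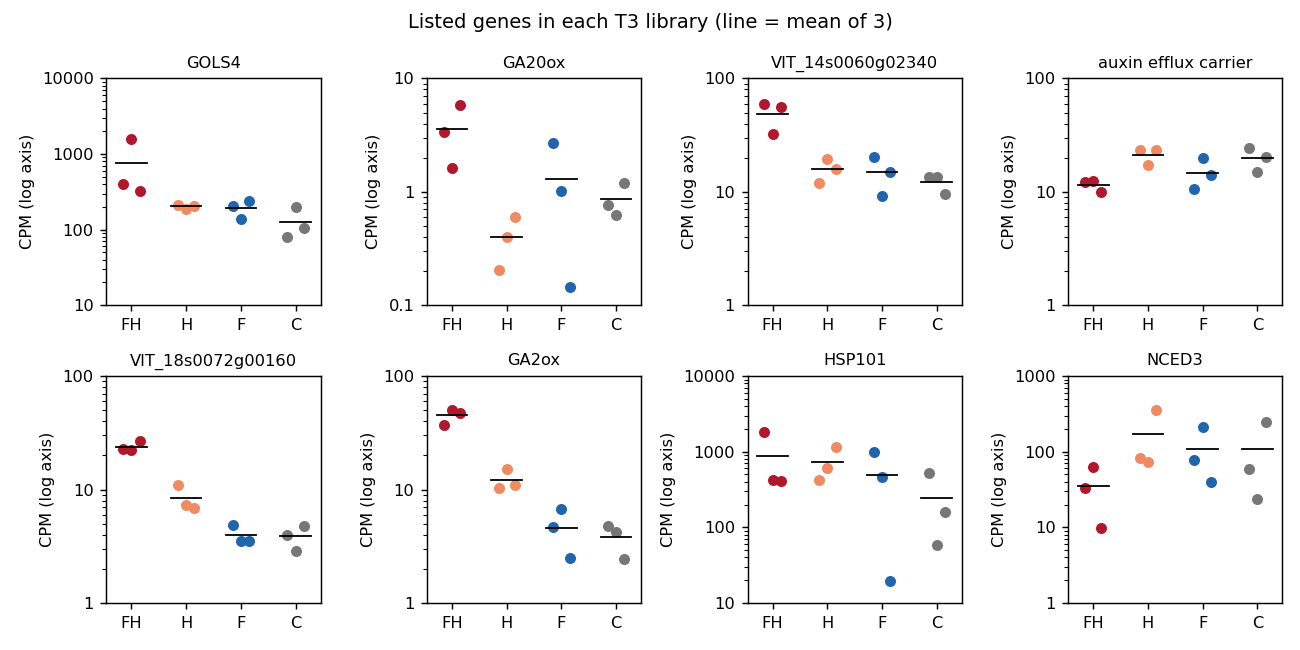
Levels of 8 listed genes in the 12 T3 libraries, in CPM on log axes, with one point per vine and a line at the mean of the 3 libraries of a group. In GOLS4, GA20ox, VIT_14s0060g02340, VIT_18s0072g00160 and GA2ox each FH point is above each H point, in the auxin efflux carrier and NCED3 each is below, and in HSP101 all groups overlap.

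VIT_14s0060g02340, a qPCR target for which the sources used here give no role, had 59.0, 32.2 and 55.8 CPM in FH libraries, against 12.1, 19.3 and 15.9 CPM in H libraries. F had 9.28 to 20.2 CPM and C 9.66 to 13.6 CPM, so that FH stood above the other 3 groups. The log2 fold change of FH over H was 1.64 (SE 0.42, edgeR adjusted p = 0.0349), and its adjusted p was 0.264 without FH replicate 3 and 0.0531 to 0.171 without any one H library. The gene followed opposite courses before and at T3. At T1 it was lower in FH, with 7.89, 28.7 and 20.8 CPM, than in H, with 88.0, 54.5 and 51.6 CPM (log2 fold change -1.76, SE 0.42, adjusted p = 0.0329). At T2 the groups overlapped, at 91.7, 55.8 and 54.2 CPM in FH and 65.9, 82.4 and 37.3 CPM in H libraries. By T3 the H libraries overlapped with F and C, while the FH libraries did not.

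Another qPCR target, VIT_18s0072g00160, had 22.6, 22.5 and 26.6 CPM in FH libraries, against 11, 7.29 and 6.92 CPM in H libraries. The groups do not overlap, and F and C libraries were lower still, at 3.54 to 4.90 and 2.86 to 4.73 CPM. It was called by DESeq2 (adjusted p = 0.0437) and not by edgeR (log2 fold change 1.51, SE 0.48, adjusted p = 0.0793). Of the 13 qPCR targets, 3 were higher with edgeR and 4 with DESeq2, and 0 were lower with either.

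In auxin signaling, 0 of 18 genes were higher, 1 was lower and 17 did not pass, with a median log2 fold change of 0.07. The gene that fell, VIT_14s0006g01970, encodes an auxin efflux carrier, a membrane protein that moves auxin out of cells. It had 12.1, 12.6 and 9.96 CPM in FH libraries, against 23.4, 17.1 and 23.4 CPM in H libraries. The replicates of FH were within a narrow range below all H values. It had a log2 fold change of -0.88 (SE 0.23, edgeR adjusted p = 0.0395), and the adjusted p was 0.326 without FH replicate 3, 0.158 without H replicate 1 and 0.171 without H replicate 3. F libraries had 10.5, 19.8 and 13.9 CPM, which overlap with both FH and H, and FH over F did not pass (edgeR adjusted p = 0.428). C libraries overlapped with H and not with FH. The transcript declines during ripening, with a log2 change of -1.89 in C berries between T0 and T5 (adjusted p = 3.11e-09). It was also lower in H than in C at T2 (log2 fold change -0.90, edgeR adjusted p = 0.00575). The Aux/IAA repressor gene VIT_18s0001g08090 had 73.3, 75.6 and 44.0 CPM in FH and 97.2, 88.3 and 115 CPM in H libraries, did not pass (adjusted p = 0.129), and was named after its values had been seen.

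In the list of ABA synthesis and breakdown 0 of 5 genes passed (edgeR and DESeq2), 1 had an unadjusted p under 0.05, and the median log2 fold change was -0.22. NCED enzymes carry out the limiting step of ABA synthesis. NCED3 (VIT_19s0093g00550) had 33.3, 62.5 and 9.65 CPM in FH libraries, against 83.6, 74.2 and 358 CPM in H libraries. Each FH value was below each H value, and the difference did not pass (log2 fold change -2.29, SE 0.93, adjusted p = 0.156). NCED4 (VIT_02s0087g00930) had 163, 468 and 99.0 CPM in FH and 169, 147 and 215 CPM in H libraries, and NCED5 (VIT_10s0003g03750) had 95.0, 747 and 61.5 CPM in FH and 196, 177 and 214 CPM in H libraries. In both, FH replicate 2 was above all H libraries and FH replicate 3 was below them. Their log2 fold changes of 0.46 and 0.62 had adjusted p values of 0.695 and 0.66, and without FH replicate 2 they were -0.42 and -1.31. NCED6 (VIT_05s0051g00670) was low, at 0.85 to 1.6 CPM in FH and 1.14 to 1.97 CPM in H libraries. CYP707A3 (VIT_18s0076g00340), an ABA 8-hydroxylase that breaks ABA down, had 6.57, 6.51 and 7.61 CPM in FH and 10.2, 7.85 and 9.2 CPM in H libraries, each FH value below each H value, with a log2 fold change of -0.39 (adjusted p = 0.695). CYP707A3 was named after its values had been seen. In the 7 tested genes that the study linked to ABA by a correlation network, all log2 fold changes were negative (median -0.77), 0 passed with edgeR or DESeq2 and 1 had an unadjusted p under 0.05.

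Ethylene synthesis also held no DEG, with 0 of 5 genes passing (edgeR and DESeq2), 2 at an unadjusted p under 0.05, and a median log2 fold change of -0.32. ACO1 (VIT_11s0016g02380), an ACC oxidase that makes ethylene from its precursor, had 28.1, 72.3 and 19.3 CPM in FH and 73.6, 34.2 and 41.8 CPM in H libraries. The groups overlap, and the log2 fold change was -0.32 (adjusted p = 0.887). The ACC synthase ACS1 (VIT_15s0046g02220) had 2, 12.7 and 1.16 CPM in FH and 4.34, 1.48 and 2.22 CPM in H libraries, with FH replicate 2 again the highest. The ACC synthase VIT_02s0025g00360 had 4.56, 2.35 and 1.73 CPM in FH and 5.77, 11 and 8.8 CPM in H libraries, each FH value below each H value (log2 fold change -1.57, edgeR adjusted p = 0.146). ACO3 (VIT_00s2086g00010) had 22.6, 4.49 and 5.29 CPM in FH and 18.9, 49.7 and 52.1 CPM in H libraries (log2 fold change -1.90, adjusted p = 0.186). These are the 2 genes at an unadjusted p under 0.05. All but ACO1 were named after their values had been seen.

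In several lists the FH vines were split, with some apart from the H vines and others near or beyond them on the other side. All 5 tested genes linked to the cytokinin 2-IP had positive log2 fold changes (median 2.08). With edgeR 0 passed, 3 had an unadjusted p under 0.05, and DESeq2 called 1, while FH replicate 2 was above the mean of H in 1 of them alone. VIT_08s0007g04180, a transcription factor gene, had 72.9, 2.61 and 55.3 CPM in FH and 4.41, 10.2 and 10.1 CPM in H libraries. Of the wound-responsive protein genes, VIT_12s0057g00080 had 87.5, 4.10 and 58.7 CPM in FH and 8.69, 17.1 and 9.74 CPM in H libraries. VIT_12s0057g00110 had 19.3, 0.20 and 7.07 CPM in FH and 1.36, 1.71 and 1.54 CPM in H libraries, with a log2 fold change of 2.52 (SE 0.89), and was called by DESeq2 (adjusted p = 0.0484) and not by edgeR (adjusted p = 0.107). In each of these 3 genes FH replicates 1 and 3 were above and FH replicate 2 below all H libraries. In the same order, F libraries had 24.9 to 101, 18.3 to 69.4 and 0.92 to 11.1 CPM, which overlap with FH. The first 2 of these genes were named after their values had been seen.

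The opposite split, with FH replicate 1 alone near H, appeared in genes that the study correlated with salicylic acid levels and sorted by GO term. They are not the gene sets of those GO terms as a whole. All 7 salicylic acid network genes of the cell wall term had negative log2 fold changes (median -1.22), 1 of which, VIT_07s0005g02090, was at 0.17 CPM or less in each FH and H library, 0 passed (edgeR and DESeq2) and 2 had an unadjusted p under 0.05. VIT_02s0154g00080 of this list had 40.4, 3.39 and 6.63 CPM in FH and 39.9, 38.7 and 38.9 CPM in H libraries. Of the network genes of the plasma membrane term, 12 of 15 log2 fold changes were negative (median -1.20), 0 passed (edgeR and DESeq2) and 5 had an unadjusted p under 0.05. There VIT_15s0048g01750 had 56.9, 1.5 and 2.94 CPM in FH and 40.8, 33.9 and 45.7 CPM in H libraries. VIT_02s0154g00080, VIT_07s0005g02090 and VIT_15s0048g01750 were named after their values had been seen. Of the 14 network genes for transcription factor activity, FH replicate 1 was above the mean of H in 11, and FH replicates 2 and 3 in 1 each. Among these and the network genes for response to stimulus 0 genes passed (edgeR and DESeq2), with medians of -0.46 and -0.64 over 14 and 19 genes, and 0 and 2 had an unadjusted p under 0.05. Both lists were low. The 14 genes together had 28.1, 6.45 and 6.49 CPM in FH and 15.6, 17.1 and 24.9 CPM in H libraries. The 19 genes together had 21.3, 3.52 and 4.05 CPM in FH and 10.7, 14.1 and 20.8 CPM in H libraries. Their medians thus rest in part on genes near the floor. The lists for heat and hydroxycinnamate markers and for salicylic acid, wax and ripening, with 3 genes each, had medians of -0.42 and -0.67 and 0 DEGs (edgeR and DESeq2), with 0 genes at an unadjusted p under 0.05. The 5 qPCR reference genes had log2 fold changes of -0.52 to 0.24 and 0 DEGs with either tool, with 1 at an unadjusted p under 0.05.

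**Figure D3:**
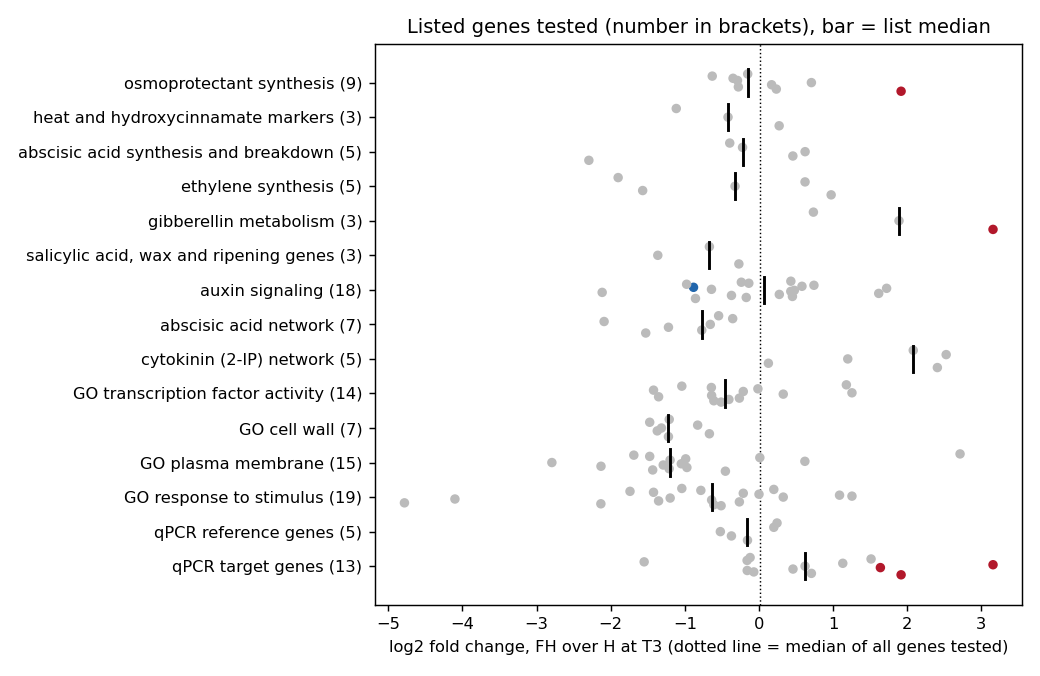
Log2 fold change of FH over H at T3 for each tested gene of the 15 lists (those marked GO hold salicylic acid network genes of that term), with the number tested in brackets and a bar at the median of the list. Red points are DEGs higher and blue points DEGs lower in FH, and the dotted line is the median of all genes at 0.02. The 4 listed DEGs are GOLS4, GA20ox and VIT_14s0060g02340, each of which appears in 1 or 2 lists, and the auxin efflux carrier.

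Among the DEGs that the study does not name, those with the largest changes at 5 CPM or more are given by ID, since no table at hand pairs the IDs with names. The highest were VIT_12s0034g01890 and VIT_12s0034g01930, on chromosome 12. The first had 3.34, 4.69 and 30.1 CPM in FH and 0.27, 0.23 and 0.54 CPM in H libraries (log2 fold change 5.19, SE 0.995, edgeR adjusted p = 0.0137). The second had 2.95, 5.21 and 26.6 CPM in FH and 0.75, 0.34 and 0.47 CPM in H libraries (log2 fold change 4.49, SE 0.83, edgeR adjusted p = 0.0107). FH replicate 3 was the highest in both, and without it their log2 fold changes were 3.53 and 2.97 with adjusted p values of 0.204 and 0.198. Without H replicate 1 or 3 the adjusted p values were 0.0686 to 0.0844. They belong to a run of 3 tested neighbours in the order of IDs that were all higher in FH, the longest such run, beside 5 pairs of neighbours that were higher and 1 pair that was lower. Whether these neighbours share sequence was not tested, and uniquely mapping reads alone were counted. At T2 the first had 1.03, 16.7 and 9.51 CPM in FH and 2.90, 5.83 and 0.973 CPM in H libraries, so that it was on in both groups in the middle of the heatwave. Chromosome 12 had the highest share of DEGs, with 14 higher and 7 lower of 904 tested genes (2.32%), and chromosome 18 the lowest, with 7 higher and 3 lower of 1500 (0.667%), against 1.3% over all genes.

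In the DEGs with the largest decreases H replicate 3 was far above the other vines. VIT_14s0128g00200 had 0.056, 0 and 0.044 CPM in FH libraries, which are raw counts of 1, 0 and 1, against 0.88, 0.11 and 321 CPM in H libraries. Its adjusted p was 0.0484 with edgeR and 0.229 with DESeq2. It was 0.623 without H replicate 3, and above 0.05 without any other library except H replicate 2. VIT_11s0037g00290 had 0.72, 0 and 0 CPM in FH and 1.22, 3.07 and 11.8 CPM in H libraries (log2 fold change -4.46, SE 1.20, edgeR adjusted p = 0.0435), and its adjusted p was 0.268 without H replicate 3 and 0.0824 to 0.349 without H replicate 1, FH replicate 2 or FH replicate 3.

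To place the DEGs, they were followed in contrasts with no T3 library, namely the change of C berries between T0 and T5 (ripening) and that of H over C berries at T2, in the middle of the heatwave, which also compares the tunnels. Of the 130 genes higher in FH at T3, 103 also rose in C berries during ripening and 4 fell, where 25.1% of all genes rose and 31.5% fell. Of the 126 genes lower in FH, 113 fell during ripening and 2 rose. Their median log2 change during ripening was 1.39 for the higher and -2.07 for the lower genes, against -0.05 for all genes. The heatwave contrast had the same direction. Of the higher genes 50 were also higher and 1 was lower in H than in C at T2, where 5.93% of all genes were higher and 7.71% lower. Of the lower genes 65 were also lower at T2 and 0 were higher. The median log2 fold changes of H over C at T2 were 0.63 and -0.89.

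The ripening and heatwave contrasts called many of the same genes, and the C and H vines of T2 were uneven in ripening (scores below). Of 1776 genes called in both contrasts, 1515 (85.3%) had one direction. Of the 130 higher genes 44 were up in both and 58 up in ripening alone, and of the 126 lower genes 61 were down in both and 52 down in ripening alone. The higher genes that were up in the heatwave alone were 6, and the lower genes down in the heatwave alone were 4. The shares moved with the set of calls. In the direction of ripening were 79.2 and 89.7% of the higher and lower DEGs, 79.0 and 89.4% of those of DESeq2, 77.4 and 87.5% without FH replicate 1, 81.7 and 86.6% without H replicate 2, and 74.1 and 68.8% without FH replicate 2. In the direction of the heatwave were 38.5 and 51.6% of the higher and lower DEGs, 30.0 and 50.8% of those of DESeq2, and 38.7 and 44.3% without H replicate 2. Without FH replicate 1 these were 20.5 and 44.3%, and without FH replicate 2 they were 24.6 and 40.0%.

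The libraries were also placed along both changes as a whole. A ripening score was set to 0 at the mean of C at T0 and 1 at the mean of C at T5 over the 11101 genes that changed between them. At T3 it was 0.783, 0.887 and 0.920 in FH and 0.699, 0.715 and 0.656 in H libraries, against 0.860, 0.781 and 0.779 in F and 0.551, 0.813 and 0.743 in C libraries. Each FH library was thus above each H library, and FH overlapped with F and C. The mean was 0.863 ± 0.072 in FH and 0.690 ± 0.031 in H (SD, n = 3 each). In the groups of the heatwave contrast at T2, it was 0.395, 0.736 and 0.643 in C and 0.835, 0.690 and 0.680 in H libraries. Without the genes called in both contrasts it was 0.419, 0.763 and 0.658 in C and 0.801, 0.617 and 0.606 in H libraries. C replicate 1 was the lowest in both. Whether a gap in ripening entered the heatwave contrast was not tested.

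A heatwave score was set to 0 at the mean of C at T2 and 1 at the mean of H at T2 over 2677 genes. At T3 it was 0.649, 0.785 and 0.803 in FH and 0.400, 0.405 and 0.303 in H libraries, against 0.502, 0.191 and 0.052 in F and 0.083, 0.246 and 0.126 in C libraries. All FH libraries were above all other T3 libraries, while F replicate 1 was above the H libraries. The score also rose with time in C berries, which were never heated. These had 0.332, 0.285 and 0.469 at T4 and 0.564, 0.703 and 0.682 at T5. FH at T3 thus overlapped with C at T5, and H at T3 with C at T4, so that the score is not one of heat alone. At T2 the means had been 0.723 ± 0.156 in FH and 1 ± 0.127 in H, with FH replicate 3 (0.901) above H replicate 1 (0.854). The T2 value of H is favoured, since H at T2 chose the genes and set the value of 1, so that a lower score of H at T3 is in part built in and the courses of FH and H from T2 to T3 are not compared. At T4 the heatwave scores overlapped, at 0.452, 0.957 and 0.411 in FH and 0.376, 0.431 and 0.269 in H libraries, and so did the ripening scores, with means of 0.819 ± 0.110 in FH and 0.822 ± 0.028 in H. When genes called in both contrasts were left out, the means at T3 were 0.840 in FH and 0.684 in H for ripening (9325 genes), and 0.5 in FH and 0.273 in H for the heatwave (901 genes). FH and H libraries did not overlap in either. With each FH or H library left out in turn, the difference of FH minus H was 0.145 to 0.214 for ripening and 0.343 to 0.425 for the heatwave. All FH scores lay above all H scores, so that its sign could not change and is no support.

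**Figure D4:**
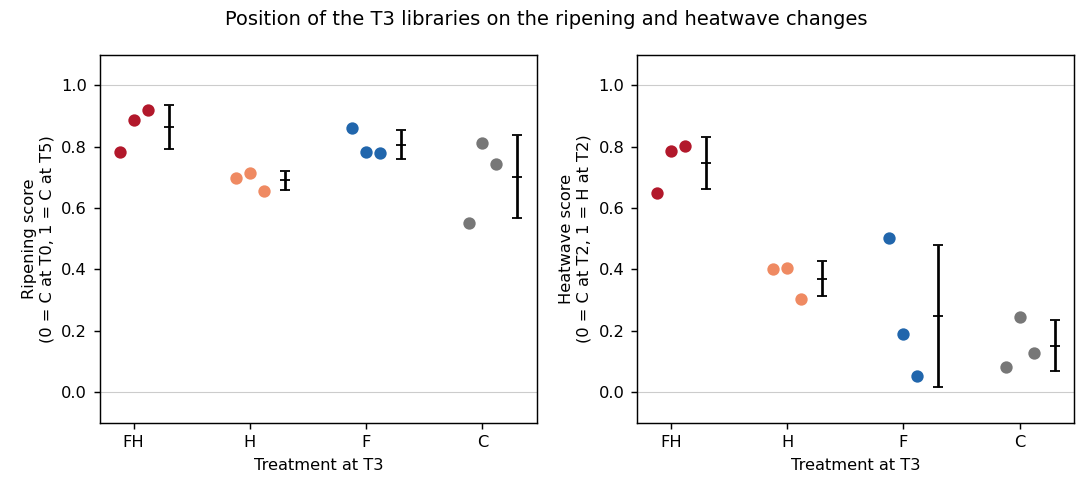
Ripening score (left) and heatwave score (right) of each T3 library, which have no unit, by treatment. Points are vines, and the black marks give the mean and SD of the 3 libraries. On the heatwave score the FH libraries sit between 0.649 and 0.803 and the H libraries between 0.303 and 0.405.

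FH and H berries were also compared at the other time points. At T1, under drought before the heat, edgeR found 109 DEGs higher and 28 lower in FH (0.555 and 0.143% of genes), and DESeq2 329 and 164 (2.24 and 1.12%). At T2 edgeR found 0 in each direction, and DESeq2 3 higher (0.0153%) and 0 lower. With edgeR 808 genes had an unadjusted p under 0.05 at T2, fewer than a share of 0.05 of the genes tested. At T4, in recovery, edgeR found 12 higher (0.0611%) and 0 lower (2385 with an unadjusted p under 0.05), and DESeq2 152 and 29 (0.79 and 0.151%). At T5 edgeR found 0 (2274 with an unadjusted p under 0.05), and DESeq2 12 and 71 (0.14 and 0.827%). The difference itself was tested in the same edgeR model, as an alternative chosen after the values had been seen. The log2 fold change of FH over H was higher at T3 than at T1 in 398 genes and lower in 427 (2.03 and 2.18%), and higher than at T2 in 80 and lower in 148 (0.408 and 0.754%). It was higher than at T4 in 9 and lower in 12 (0.0459 and 0.0611%), and higher than at T5 in 1 (0.0051%).

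The T1 counts also depended on single vines, with 0 in both directions without H replicate 1, H replicate 2 or FH replicate 3, 10 higher and 0 lower without FH replicate 1, 403 and 194 without FH replicate 2, and 1039 and 673 without H replicate 3. At T4 they ran between 0 without FH replicate 2 and 448 higher and 137 lower without FH replicate 1, with 234 and 23 without FH replicate 3 and at most 2 higher and 1 lower without an H library. Of the 130 genes higher in FH at T3, 1 was higher and 2 were lower at T1, and of the 126 lower genes 1 was higher and 0 were lower.

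These genes were then followed through the other times. At T2 the log2 fold change of FH over H was negative in 99 of the 130 higher genes (median -0.17) and positive in 114 of the 126 lower genes (median 0.37), which is against its direction at T3. At T4 it was near 0, with medians of 0.03 and -0.06. At T5 it was positive in 101 of the higher genes (median 0.27) and negative in 110 of the lower genes (median -0.49), in its direction at T3. These are counts of genes and not of vines. The ripening scores of T5 overlapped, at 0.902, 0.926 and 0.929 in FH and 0.934, 0.902 and 0.783 in H libraries, with H replicate 3 the lowest. By group, the median level of the higher genes relative to H at T3 was 0.37 in FH and 0.49 in H at T2, 0.69 in FH at T3, and 0.55 in FH and 0.60 in H at T4. F and C berries stood at 0.32 and 0.25 at T3. In the lower genes the median was -0.41 in FH and -0.68 in H at T2, -0.88 in FH at T3, and -0.69 in FH and -0.57 in H at T4, with -0.36 in F and -0.20 in C at T3. The levels of FH and H at T3 chose the genes and are a description. The levels of the other groups are relative to H at T3, so that this choice enters them too.

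**Figure D5:**
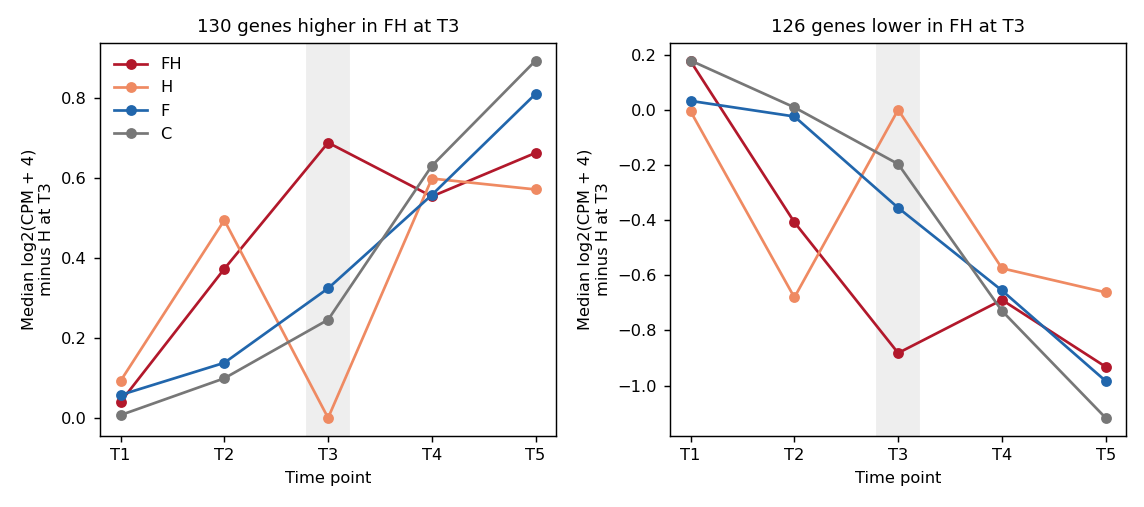
Median over the 130 genes higher (left) and the 126 genes lower (right) in FH at T3 of the group mean on the log2(CPM + 4) scale, relative to H at T3, by time point and treatment. T3, in the grey band, is the time at which the genes were chosen. Since FH and H at T3 chose the genes, their distance there is built in. All other values are relative to H at T3, so that this choice enters them too.

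The flooding effect at T3 was also looked for without summer stress. Between F and C berries at T3, 0 genes were DEGs (edgeR, with 1476 under an unadjusted p of 0.05), and DESeq2 called 1 higher and 2 lower in F (0.0051 and 0.0102%). The test of the difference between FH over H and F over C called 0 genes (edgeR, with 1695 under an unadjusted p of 0.05), and 1 with DESeq2 (0.0051%), so the counts do not show that flooding acted differently in stressed and unstressed vines. In the genes higher in FH, the median log2 fold change of F over C was 0.11 and it was positive in 89 of 130. In the lower genes it was -0.24 and negative in 105 of 126. F and C share no library with FH and H, but their vines overlapped. Relative to H at T3, the median deviation of the higher genes was 0.49, 0.19 and 0.24 in F libraries. In C libraries it was 0.12, 0.36 and 0.20. For the lower genes it was -0.59, -0.22 and -0.21 in F and -0.005, -0.42 and -0.18 in C libraries. F replicate 1 was the farthest from H in both sets, and counts of genes are not counts of vines. Over all genes, F over C was positive in 49.2%. The contrasts that share libraries with FH over H are given side by side. FH over F had 246 higher and 325 lower DEGs at T3 (1.25 and 1.66%), and 417 and 457 with DESeq2 (2.26 and 2.47%). H over C had 14 and 19 (0.0713 and 0.0968%), and 128 and 96 with DESeq2 (0.665 and 0.499%). In the genes higher in FH than in H, the median log2 fold change was 0.51 for FH over F and -0.42 for H over C, and in the lower genes it was -0.73 for FH over F and 0.23 for H over C.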

How the data were processed

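As deposited by the authors, the table holds raw read counts per gene row, in whole numbers and not normalized. The authors aligned stranded single-end reads to the 12X grapevine genome with TopHat, and reads with a single hit were counted. On trimming and the counting tool the paper and the submitters' processing notes disagree (the notes list Trimmomatic 0.39 and featureCounts), and no other version is stated. The number of per-sample columns left unused was 0. Of 29688 gene rows, 300 share 149 IDs and were kept apart.

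Groups were taken from the sample titles. Counts were normalized by TMM, and a gene entered the fit if 3 or more libraries reached 0.5 CPM, in R 4.3.3 with edgeR 4.0.16 (robust quasi-likelihood fit, one mean for each of 22 groups, common dispersion 0.0765). For principal components, the 5000 genes of highest variance in log2(CPM + 4) were taken. Scores project a library on the change of log2(CPM + 4) between the groups that set 0 and 1, and no p is given for them. CPM is not scaled by gene length, so levels are not compared between genes.

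The members, gene lists and alternatives were chosen with earlier results of these data known. Genes named are the listed genes called by edgeR or DESeq2, a fixed few (GOLS4, HSP101, NCED genes, ACO1), and the first 2 DEGs in each direction by size of change among those averaging 5 CPM or more in the group where they were higher and whose groups did not overlap. Others were named after their values had been seen and are marked so. Keyword lists were not used, since the 29591 rows of the reference table matched 0 of the IDs. Alternatives were DESeq2 1.42.0 (with and without a fold change of 1.5 as its null), no filter, RLE normalization, the libraries of T3 or of FH and H at T3 alone, a replicate block, summed rows, and leaving out each library. Other fits chosen after seeing the data were the tests of FH over H between time points, leaving out libraries at T1 and T4 and in the scores, and scores without shared genes.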

Additional observations from a re-analysis of the deposited data

Results flagged for a closer look

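The difference between FH and H berries at T3 was tested against that at each other time point in the same edgeR model, and the genes whose effect differed are given here because the same contrast gave different values at 2 times. These tests were chosen after the values had been seen. Against T1, 825 genes differed (398 with a higher and 427 with a lower log2 fold change at T3). Against T2, 228 genes differed (80 and 148). Against T4, 21 genes differed (9 and 12), and against T5, 1 gene did. Among the listed genes, the difference in the log2 fold change between T3 and T1 was 3.39 for VIT_14s0060g02340, lower in FH at T1 and higher at T3, and 2.85 for VIT_18s0072g00160, 1.82 for the auxin induced gene VIT_07s0005g04380 and -0.82 for the qPCR reference gene VIT_06s0004g03310. Between T3 and T2 it was 2.57 for GOLS4 (VIT_01s0127g00470), -1.25 for the auxin efflux carrier VIT_14s0006g01970 and -0.96 for VIT_06s0004g03310. That reference gene had 67.0, 63.0 and 49.5 CPM in FH and 86.2, 83.7 and 87.5 CPM in H libraries of T3, which do not overlap, and its log2 fold change of -0.52 did not pass (edgeR adjusted p = 0.0936).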

How the results depend on the processing

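All 256 DEGs of T3 kept their sign under every alternative except the sum of rows with one ID, where 255 did. This was largely built in, since each alternative reuses libraries that chose the genes. The number of DEGs moved. For genes higher and lower in FH at T3, the number was 300 and 331 with DESeq2, and 5 and 3 when DESeq2 took a fold change of 1.5 as its null. It was 72 and 94 with no filter, 0 and 0 in a model of the 12 libraries of T3, and 2 and 1 in a model of the 6 libraries. RLE normalization gave 134 and 142 and summed rows 151 and 115. Leaving out one library gave 0 to 439 higher and 0 to 503 lower. At T1 it gave 0 to 1039 and 0 to 673, and at T4 0 to 448 and 0 to 137. With the replicate number as a block (replicate block), 36 genes were higher and 61 lower. Deviations from the group means correlated at -0.16, -0.43 and -0.19 between FH and H vines of one number. No vine correlated best with its own number, so these values show no pairing by number. With 3 vines per group they cannot exclude one.

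With DESeq2 the higher and lower counts of FH over H were 329 and 164 at T1, 3 and 0 at T2, 152 and 29 at T4, and 12 and 71 at T5. At T3 they were 1 and 2 for F over C, 417 and 457 for FH over F, 128 and 96 for H over C, and 1 and 0 for the difference between FH over H and F over C. For FH over H at T3 against that at another time, they were 648 and 701 (T1), 166 and 370 (T2), 109 and 215 (T4), and 5 and 3 (T5).

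Of the named genes, HSP101 changed sign with the block (log2 fold change -0.43) and ran from -0.83 without FH replicate 1 to 0.77 without H replicate 3, with 0 without H replicate 1. NCED4 ran from -0.42 to 0.83 and NCED5 from -1.31 to 1.11, the low ends without FH replicate 2 and the high ends without FH replicate 3. ACO1 ran from -1.06 without FH replicate 2 to 0.07 without H replicate 1, with 0.01 without FH replicate 3. The cause was not tested. Depth limits genes near 3 counts per library, such as GA20ox in H.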
